A study of Mus musculus with 39 samples.

Results

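Genes of T cells and natural killer (NK) cells were followed in the spleen, bone marrow and liver of mice after 2 hours of reduced oxygen. The 33 genes were listed by name as genes known from these cells, and a gene was measured where at least 1 array probe set carried its symbol and no other. That held for 30 of the 33, out of 18193 genes with a probe set of their own in the whole series. Lck, Tcf7 and Klrb1c were not analysed here. The mice were B6C3F1, the first-generation cross of C57BL/6 and C3H. The hypoxia arms, kept under reduced oxygen, had 8 spleen, 4 bone marrow and 8 liver arrays. The control arms, called vehicle in the sample titles, had 8 spleen, 3 bone marrow and 8 liver arrays. No vehicle substance is named, nor whether the hypoxia arms received it. No genotype or transgene is given for either arm, and the age and the oxygen level are not given in the sources used here. Both arms were killed under ketamine and acepromazine anaesthesia, and the tissue taken was part of a spleen, the marrow of 1 humerus or a piece of 1 liver lobe. The labels do not say whether arrays of an arm came from separate mice or whether the tissues of a number came from the same mouse, so p-values measure the spread between arrays, which may be technical.

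T cells recognise antigen through a receptor coupled to the CD3 chains and the zeta chain, with CD4 or CD8 as coreceptors, and pass the signal on through the kinase ZAP-70 and the adaptor LAT. Costimulatory receptors such as CD28 strengthen that signal and inhibitory receptors such as CTLA-4 restrain it. Cytotoxic T cells and NK cells kill through perforin and granzymes, and the transcription factors T-bet and Eomes direct that programme. The spleen holds T cell zones around its arterioles and NK cells mainly in the red pulp, while healthy marrow and liver hold fewer T cells.

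Levels are log2 intensities of the brightest probe set of a gene in a tissue. A difference is hypoxia minus vehicle on that scale with its standard error (SE), from limma fitted to 12735 genes per tissue. A gene was called, that is, said to have risen or fallen, at a Benjamini-Hochberg adjusted p under 0.05 over all of those genes. The arrays of a tissue had median log2 intensities of 6.16 to 6.20 in spleen, 6.22 to 6.29 in bone marrow and 5.21 to 5.33 in liver. Markers of hepatocytes averaged 14.4 to 14.5 in liver arrays and at most 5.42 in spleen and 5.02 in marrow arrays, and the T and NK cell genes averaged 7.87 to 9.02 in spleen, 6.90 to 7.10 in marrow and 4.72 to 5.06 in liver, where 16 of the 30 fell among the dim genes. Each tissue seems to have been normalized on its own, and levels in different tissues are given as description only. One spleen array stood apart. Spleen array 4 of the hypoxia arm correlated least with the other spleens, with a mean r of 0.977 against at least 0.983 for the others, and had the lowest level of the hypoxia arm for 19 of the 30 genes. Spleen differences that it moved are given with and without it. Among the vehicle spleens, array 8 had the highest level for 14 of the 30 genes and array 7 for 7.

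In spleen, 3 of the 30 genes rose after reduced oxygen and 1 fell. The inhibitory receptor gene Ctla4 rose 2.24-fold, the granzyme B gene Gzmb 1.84-fold and the perforin gene Prf1 1.30-fold, while Tbx21, which encodes T-bet, fell and was 2.08-fold lower. Over all genes tested in spleen 19.4% were called, 6.83% higher and 12.6% lower, and 4 of 30 is a smaller share than that. The order of the shares turned in 2 alternative fits. Within replicates 1 to 4, 1 of the 30 rose and 1 fell while 482 of 12735 genes were called, and with the B cell level as a covariate 7 rose and 1 fell while 2669 were called. The other 26 differences ran from -0.58 to 0.49, with adjusted p of at least 0.0611. Of the 30 differences 19 were below 0 and 11 above, with a median of -0.20, against a median of -0.01 over all genes. Without hypoxia array 4, again 19 differences were below 0 and 11 above, the median was -0.05, and the called genes were these 4 and Il2rb, at 0.30 (adjusted p = 0.0231). In whole tissue, fewer cells of a type and less RNA per cell cannot be told apart.

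**Figure D1:**
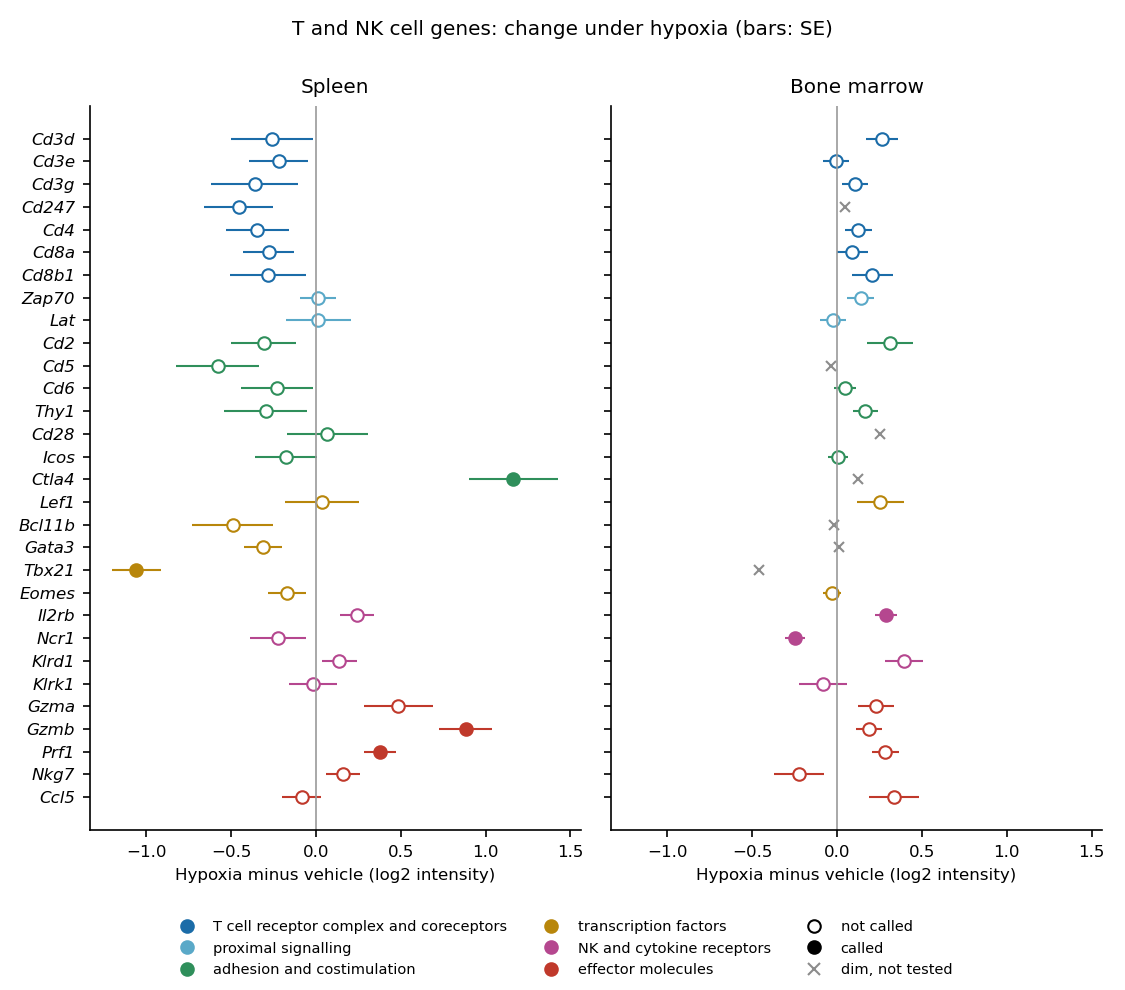
Differences of the 30 genes between hypoxia and vehicle in spleen (8 arrays each) and bone marrow (4 hypoxia and 3 vehicle arrays), in log2 intensity with SE bars, coloured by role. Filled points are called, open points are not, and crosses are genes too dim to test; in spleen the 3 filled points above 0 are Ctla4, Gzmb and Prf1 and the 1 below 0 is Tbx21.

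The start regions of the 4 genes called in spleen are shown because the spleen results below turn on these genes. They are RefSeq windows of assembly GRCm38.p6, from 250 bases before the transcription start to 50 after it, in the direction of the gene. They lie at chr1:60908775-60909074 on the plus strand for Ctla4, at chr14:56262285-56262584 on the minus strand for Gzmb, at chr10:61297586-61297885 on the plus strand for Prf1 and at chr11:97115282-97115581 on the minus strand for Tbx21. Capitals mark matches on either strand to the hypoxia response core (ACGTG), an AP-1 site (TGANTCA), a RUNX site (ACCACA) and the hexamer of the glucocorticoid receptor (AGAACA).
Ctla4: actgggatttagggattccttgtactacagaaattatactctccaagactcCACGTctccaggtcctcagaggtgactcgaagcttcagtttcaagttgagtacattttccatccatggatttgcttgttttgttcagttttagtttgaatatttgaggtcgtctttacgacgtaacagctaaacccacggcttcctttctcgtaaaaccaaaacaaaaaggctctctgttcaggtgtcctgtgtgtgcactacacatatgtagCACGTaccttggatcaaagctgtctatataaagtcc
Gzmb: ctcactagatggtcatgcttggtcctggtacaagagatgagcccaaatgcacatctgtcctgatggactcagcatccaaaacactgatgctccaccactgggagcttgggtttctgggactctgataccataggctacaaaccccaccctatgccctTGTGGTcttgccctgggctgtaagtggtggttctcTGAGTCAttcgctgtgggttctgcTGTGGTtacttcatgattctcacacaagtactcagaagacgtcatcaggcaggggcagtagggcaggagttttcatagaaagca
Prf1: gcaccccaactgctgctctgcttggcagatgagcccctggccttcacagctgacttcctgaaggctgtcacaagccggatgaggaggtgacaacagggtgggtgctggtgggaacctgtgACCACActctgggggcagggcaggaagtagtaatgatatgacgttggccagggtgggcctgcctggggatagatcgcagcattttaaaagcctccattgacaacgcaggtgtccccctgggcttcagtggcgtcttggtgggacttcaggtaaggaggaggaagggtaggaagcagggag
Tbx21: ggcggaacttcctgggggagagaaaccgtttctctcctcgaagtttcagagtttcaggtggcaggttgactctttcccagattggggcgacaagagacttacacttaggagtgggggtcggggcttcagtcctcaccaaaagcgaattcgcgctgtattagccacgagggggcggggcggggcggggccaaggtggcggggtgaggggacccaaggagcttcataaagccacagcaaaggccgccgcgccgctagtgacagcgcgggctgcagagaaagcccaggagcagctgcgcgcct
The Ctla4 window held the hypoxia response core 2 times, once 199 bases before the start and once at base 15 counted from the start as base 1. The Gzmb window held 1 AP-1 match, 58 bases before the start, and 2 RUNX matches, 93 and 34 bases before it. The Prf1 window held 1 RUNX match, 130 bases before the start, and the Tbx21 window held none of the 4 motifs. None of these matches overlapped another. Among 32851 windows of this length, the hypoxia response core occurred in 19.6%, the AP-1 site in 7.81%, the RUNX site in 16.8% and the glucocorticoid receptor hexamer in 19.0%. These shares count windows with at least 1 match, and the share with 2 matches was not counted. A match describes these letters and not a bound site.

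Of the cell surface genes, Ctla4 had the widest response. Its log2 intensity in hypoxic spleens was 6.08 at the lowest, 7.99 at the median and 8.46 at the highest, against 6.29, 6.72 and 7.32 in vehicle spleens. Apart from array 4, at 6.08, each hypoxic spleen, from 7.82 up, lay above each vehicle spleen. The means were 7.85 ± 0.76 in hypoxia and 6.69 ± 0.32 in vehicle (SD, n = 8 each), a difference of 1.16 ± 0.26 (SE, limma adjusted p = 0.00468). Without array 4 the difference was 1.42 ± 0.14 (adjusted p = 4.00e-06). The call ended with an exact Wilcoxon test (adjusted p = 0.0538) and within replicates 1 to 4, which include array 4, where the difference was 1.04 (adjusted p = 0.272); within replicates 5 to 8 it was 1.29 (adjusted p = 0.00204).

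The other genes of adhesion and costimulation were Cd2, Cd5, Cd6, Thy1, Cd28 and Icos, and 0 of these 6 were called. Cd2 encodes an adhesion receptor of T and NK cells, Cd5 and Cd6 encode related surface receptors that modulate T cell receptor signals, Thy1 encodes a surface glycoprotein carried by mouse T cells, and Cd28 and Icos encode costimulatory receptors. Cd5 had the largest difference of the uncalled genes in spleen. Its levels in hypoxic spleens ran from 6.29 through a median of 7.84 to 8.46, against 7.85, 8.27 and 8.97 in vehicle spleens, so the arms overlapped. The difference was -0.58 ± 0.25 (adjusted p = 0.111), and without array 4 it was -0.37 ± 0.17 (adjusted p = 0.138). Cd28, which shares its ligands with Ctla4, differed by 0.07 ± 0.24 (adjusted p = 0.883), and without array 4 by 0.29 ± 0.13 (adjusted p = 0.119). Array 4 also moved the other 4 genes, to -0.15 for Cd2, -0.04 for Cd6, -0.10 for Thy1 and -0.0033 for Icos when it was left out, against -0.31, -0.23, -0.30 and -0.18 with it.

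Of the T cell receptor complex and coreceptors, 0 of 7 genes were called. These are the CD3 chain genes Cd3d, Cd3e and Cd3g, the zeta chain gene Cd247, and the coreceptor genes Cd4, Cd8a and Cd8b1. All 7 differences were below 0, from -0.45 for Cd247 to -0.22 for Cd3e, with adjusted p of 0.135 to 0.497. Their mean level in hypoxic spleens was 7.84 at the lowest, 9.16 at the median and 9.50 at the highest, against 8.95, 9.32 and 9.74 in vehicle spleens. The lowest value was array 4. Another 2 hypoxic spleens, at 8.86 and 8.91, also lay below every vehicle spleen, and the other 5 lay within the vehicle range. For Cd247 itself the levels were 6.96, 8.16 and 8.75 in hypoxic spleens, against 8.17, 8.49 and 9.07 in vehicle spleens, a difference of -0.45 ± 0.20 (adjusted p = 0.135). Without array 4 the Cd247 difference was -0.29 ± 0.15 (limma adjusted p = 0.200). The other 6 ran from -0.05 for Cd3d to -0.19 for Cd8a, so all 7 were below 0 again. Vehicle arrays 7 and 8 stayed in that fit. They had the highest mean levels of the 7 genes, at 9.73 and 9.74, against at most 9.45 in the other vehicle arrays. Their part in the sign of the 7 differences was not tested.

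The 2 signalling genes measured, Zap70 and Lat, each differed by 0.01 (adjusted p of 0.952 and 0.972), with SE of 0.10 for Zap70 and 0.19 for Lat. Without array 4, Lat differed by 0.17 ± 0.14 (adjusted p = 0.451) and Zap70 by 0.0056 ± 0.11 (adjusted p = 0.982). In array 4 Lat was at 8.92, the lowest of its arm, while the Zap70 probe set used was at 8.64, near its hypoxia median of 8.62. That probe set averaged 8.60 in hypoxic spleens, 9.25 in hypoxic marrows and 8.20 in hypoxic livers. The 2 dimmer Zap70 probe sets differed in spleen by -0.10 ± 0.18 and -0.14 ± 0.08. They were not called in a limma fit of all 34945 probe sets (adjusted p of 0.795 and 0.331).

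Among the transcription factors Tbx21 fell and the other 4 were not called. T-bet drives the interferon gamma programme of type 1 helper T cells and the maturation of NK cells. Tbx21 was at 5.97, 6.61 and 6.90 (lowest, median and highest) in hypoxic spleens, against 7.25, 7.60 and 8.06 in vehicle spleens. The arms did not overlap. The means were 6.59 ± 0.28 in hypoxia and 7.65 ± 0.33 in vehicle (SD, n = 8 each), a fall by 1.06 on the log2 scale (SE 0.14, adjusted p = 5.99e-05). Arms without overlap were found for 4.69% of all genes tested in spleen, and for 2 of the 30 genes here, Tbx21 below and Gzmb above. Eomes, the T-box factor related to T-bet, differed by -0.17 ± 0.11 (adjusted p = 0.330).

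Bcl11b encodes a zinc finger protein of T cell identity, Lef1 an HMG-box factor of naive T cells, and Gata3 the factor of type 2 helper T cells. Bcl11b levels in hypoxic spleens ran from 7.07 through 8.57 to 9.13, against 8.54, 8.92 and 9.42 in vehicle spleens, and the difference was -0.49 ± 0.24 (adjusted p = 0.166). Without array 4 it was -0.29 ± 0.16 (adjusted p = 0.241). Gata3, at -0.31 ± 0.11, was the uncalled gene nearest to the threshold (adjusted p = 0.0611), and Lef1 differed by 0.04 ± 0.22. Without array 4, Lef1 differed by 0.21 ± 0.16 (adjusted p = 0.424).

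Among the effector genes of killing and chemotaxis 2 of 5 rose and 4 of the 5 differences were above 0. Gzmb encodes the serine protease that sets off caspases in a target cell. Its levels were 6.89, 7.30 and 7.95 (lowest, median and highest) in hypoxic spleens, against 6.03, 6.46 and 6.85 in vehicle spleens. The arms did not overlap, and the lowest hypoxic spleen lay just above the highest vehicle spleen. The means were 7.36 ± 0.39 in hypoxia and 6.48 ± 0.28 in vehicle (SD, n = 8 each), a difference of 0.88 ± 0.16 (adjusted p = 0.000756).

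Prf1 encodes perforin, which opens the target cell membrane to granzymes. Its levels were 7.87, 8.01 and 8.19 in hypoxic spleens, against 7.17, 7.66 and 7.94 in vehicle spleens. The arms overlapped only through vehicle array 1, at 7.94, which lay above 4 of the hypoxic spleens. The difference was 0.38 ± 0.10 (adjusted p = 0.00937). The second probe set of Prf1 was dimmer, with a mean level of 5.09 against 7.82 for the one used, and differed by -0.04. With the mean of both the difference was 0.17 (limma adjusted p = 0.0583). The call also ended within replicates 1 to 4, at 0.47 (adjusted p = 0.127).

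Gzma, the gene of the tryptase granzyme A, was not called. Its levels were 9.66, 10.27 and 10.72 in hypoxic spleens, against 8.98, 10.03 and 10.42 in vehicle spleens, a difference of 0.49 ± 0.21 (adjusted p = 0.109). Vehicle arrays 2, 3 and 4, at 9.26, 8.98 and 9.30, lay below every hypoxic spleen and the other 5 vehicle arrays within the hypoxic range. The 5 effector genes together had their lowest mean levels in those same vehicle arrays, at 8.48, 8.41 and 8.61, while the hypoxic spleens had 8.95 to 9.50 and the highest vehicle array 9.11. Nkg7, a granule membrane protein gene, differed by 0.16 ± 0.10 and Ccl5, the gene of the chemokine RANTES, by -0.08 ± 0.12.

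The receptor genes of NK cells and their cytokines were Il2rb, the beta chain shared by the receptors of interleukins 2 and 15, Ncr1 (NKp46), Klrd1 (CD94) and Klrk1 (NKG2D). In spleen 0 of 4 were called, with differences from -0.22 for Ncr1 to 0.24 for Il2rb (adjusted p = 0.103 for Il2rb). Il2rb was called without array 4, as given above, and also with the replicate set, 1 to 4 or 5 to 8, as a term.

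**Figure D2:**
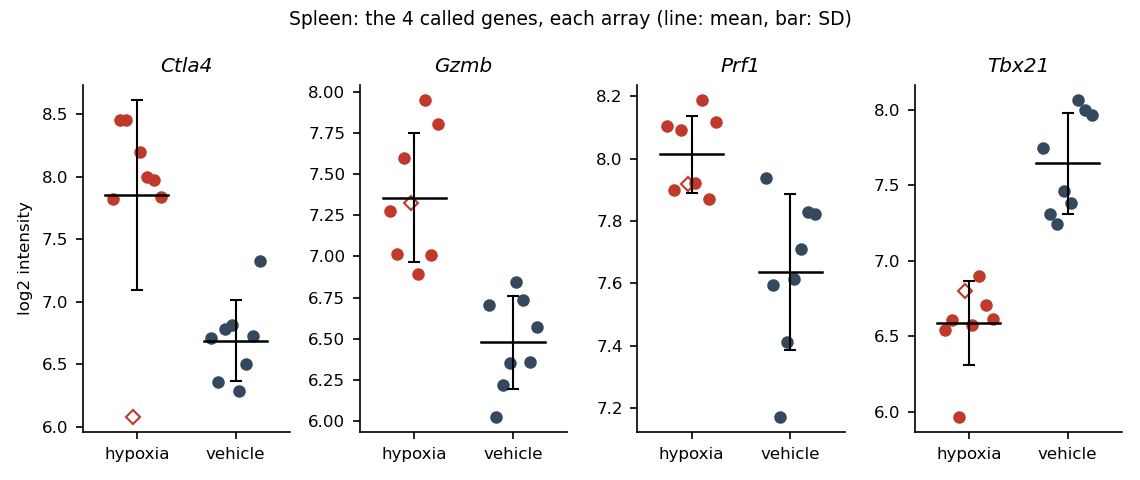
Log2 intensity in each of the 8 hypoxia and 8 vehicle spleen arrays for the 4 genes called there, with the mean (line) and SD (bar); the open diamond is hypoxia array 4. Gzmb and Tbx21 do not overlap between the arms, Ctla4 overlaps only through array 4 at 6.08, and Prf1 overlaps through vehicle array 1 at 7.94.

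Probe sets of 1 gene did not always move alike, as the plot of genes with more than 1 probe set shows. Cd8a had 5, with differences from -0.46 to -0.13, all below 0. Its brightest was not called, but 2 of the dimmer ones were, at -0.46 (adjusted p = 0.0341) and -0.33 (adjusted p = 0.00549) in a fit of all 34945 probe sets, of which 14.6% were called, 6.02% higher and 8.58% lower. The 4 probe sets of Cd247 ran from -0.45 to 0.19 with none called, and the 4 of Bcl11b from -0.49 to -0.23 with none called. The 0.19 came from the dimmest Cd247 probe set, with a mean level of 3.73, and the others were all below 0. The 2 of Il2rb stood close together, at 0.24 and 0.28, as did the 2 of Eomes, both at -0.17.

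**Figure D3:**
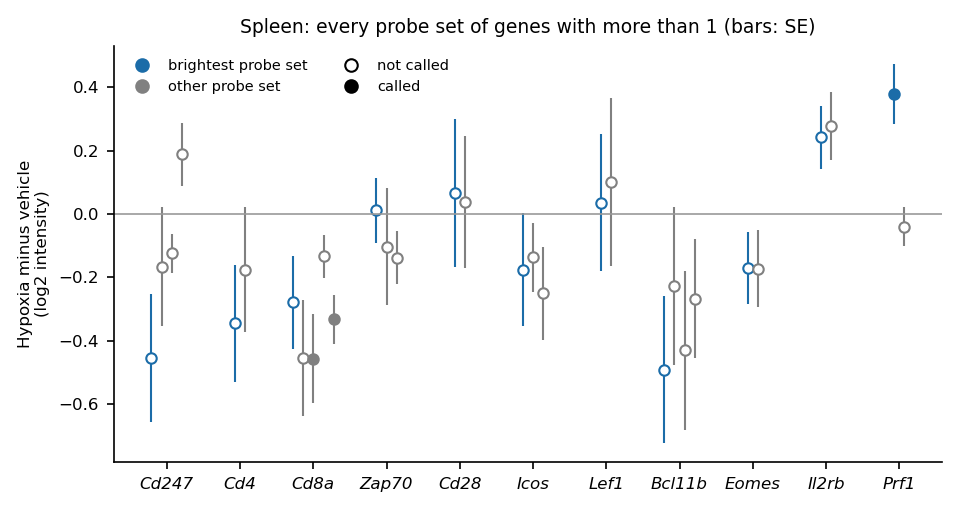
Differences between hypoxia and vehicle in spleen (log2 intensity, SE bars, 8 arrays each) for every probe set of the genes with several. The brightest is in blue and the others in grey, and filled points are called at adjusted p under 0.05 among 34945 probe sets. The 2 filled grey points of Cd8a and the filled blue and open grey points of Prf1 show probe sets of 1 gene on both sides of the threshold.

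A longer list of other T and NK cell genes was read beside the 30. Of its 68 genes 46 were tested in spleen, and 6 rose and 6 fell, with a median difference of -0.07. Over all genes tested in spleen 6.83% were called higher and 12.6% lower, so the share of the list that fell was near that of all genes. Ptpn22, whose phosphatase damps T cell receptor signalling, rose by 1.30 ± 0.17 (adjusted p = 5.48e-05). Rasgrp1, the exchange factor that couples the T cell receptor to Ras, fell by 0.90 (SE 0.16, adjusted p = 0.000695), and Slamf1, a costimulatory receptor gene, fell by 0.51 (SE 0.09, adjusted p = 0.000405). Zbtb7b, the ThPOK factor of the CD4 lineage, fell by 0.55 (SE 0.11, adjusted p = 0.00154). Id2, an inhibitor of E proteins needed by NK cells, rose by 0.63 ± 0.11 (adjusted p = 0.000669) and Crtam, a receptor of activated cytotoxic cells, by 0.41 ± 0.08 (adjusted p = 0.00157). Several of these genes, Id2 and Ptpn22 among them, are also expressed by other blood cells.

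Markers of other cell types were read in the same spleens, where 6.83% of all genes tested were called higher and 12.6% lower. Of 12 neutrophil genes tested 3 rose and 0 fell, with a median difference of 1.03, and the mean level of the list was 8.35, 10.7 and 11.8 (lowest, median and highest) in hypoxic spleens, against 8.69, 9.27 and 9.98 in vehicle spleens. Of 12 B cell genes 3 fell and 0 rose, with a median of -0.46, and the mean level was 9.39, 10.7 and 11.1 in hypoxic spleens, against 10.7, 11.1 and 11.3 in vehicle spleens. The array at 9.39 was again hypoxia array 4, which also had the lowest T cell receptor complex level and the highest erythroid level of its arm, at 11.7.

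Erythroid genes were called in neither direction among 10 tested, but their mean level ranged widely, at 10.2, 10.8 and 11.7 in hypoxic spleens, against 8.72, 10.4 and 11.7 in vehicle spleens. Of 14 macrophage and monocyte genes 2 rose and 0 fell, and of 8 dendritic cell genes 2 fell and 0 rose. Of 7 plasma cell genes 1 fell, of 7 endothelial genes 1 rose, and 0 of 10 megakaryocyte and 0 of 5 hepatocyte genes were called. With so few genes, counts of 1 or 2 do not set a list apart from the 6.83% higher and 12.6% lower over all genes. Of 12 genes that respond to glucocorticoids, hormones that act on lymphocytes, 9 rose and 0 fell, with a median difference of 1.26. The cause of these rises was not tested. The median difference of the hepatocyte genes was -0.02, against -0.01 over all genes. With the mean level of the neutrophil list as a covariate, an alternative chosen after seeing the data, Prf1 lost its call at 0.34 (adjusted p = 0.0591), and Ctla4 at 1.35, Gzmb at 0.62 and Tbx21 at -1.05 kept theirs. With the B cell list in that place, also chosen after seeing the data, Ctla4 was at 1.66, Bcl11b at -0.0021 and Cd247 at -0.05, and the genes called higher were 7. Both lists themselves differed between the arms, so these fits cannot decide the part of other cell types in the results. That part was not tested.

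**Figure D4:**
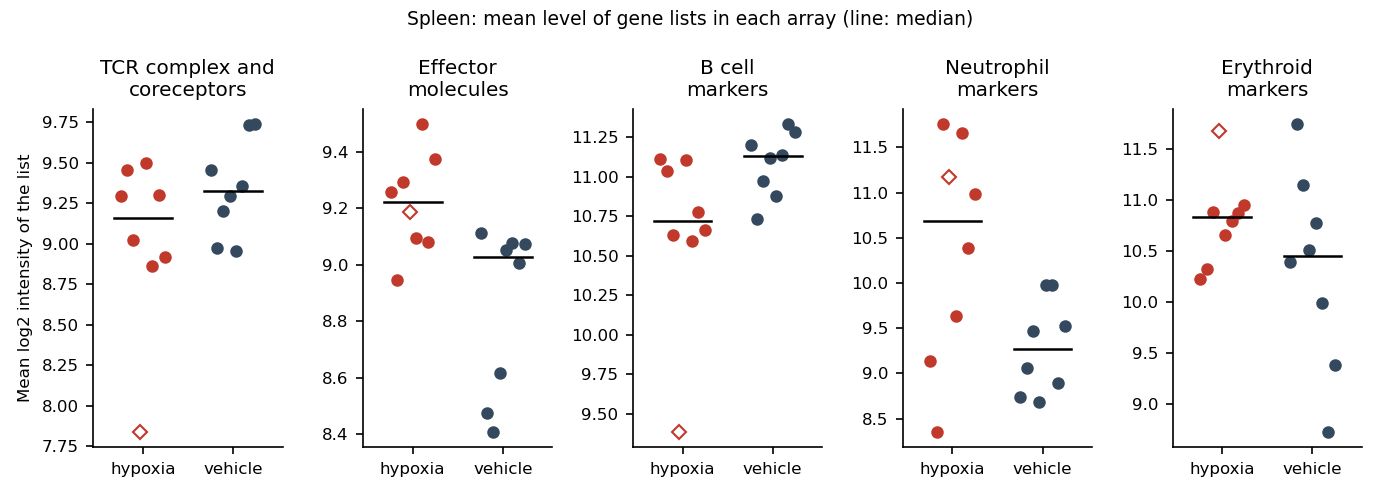
Mean log2 intensity of 5 gene lists in each of the 8 hypoxia and 8 vehicle spleen arrays, with the median as a line; the open diamond is hypoxia array 4. That array is the lowest of its arm for the T cell receptor complex (7.84) and the B cell markers (9.39) and the highest for the erythroid markers (11.7), while the effector level of 3 vehicle arrays lies between 8.41 and 8.61, below the others.

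In bone marrow, Il2rb rose 1.22-fold and Ncr1 fell and was 1.19-fold lower, and the other 21 of 23 tested genes were not called. Over all genes tested in marrow 7.69% were called, 2.76% higher and 4.92% lower. Cd247, Cd5, Cd28, Ctla4, Bcl11b, Gata3 and Tbx21 fell among the dim genes and were not tested there. Of the 23 differences 17 were above 0 and 6 below, with a median of 0.14 against -0.01 over all genes. The marrow arms held 4 and 3 arrays, and both calls ended when any 1 array was left out.

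The 4 hypoxic marrows had Il2rb at 7.55, 7.45, 7.47 and 7.64, against 7.23, 7.17 and 7.32 in the 3 vehicle marrows. The arms did not overlap. The means were 7.53 ± 0.09 (SD, n = 4) in hypoxia and 7.24 ± 0.08 (SD, n = 3) in vehicle, a difference of 0.29 ± 0.07 (limma adjusted p = 0.0376). The adjusted p lay between 0.0521 and 0.111 without single arrays, and the mean of both Il2rb probe sets differed by 0.25 (adjusted p = 0.0683).

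Ncr1 was at 6.80, 6.88, 6.94 and 6.86 in the hypoxic marrows, against 7.09, 7.08 and 7.19 in the vehicle marrows, again without overlap. The means were 6.87 ± 0.06 (SD, n = 4) in hypoxia and 7.12 ± 0.06 (SD, n = 3) in vehicle, a fall by 0.25 on the log2 scale (SE 0.06, limma adjusted p = 0.0384). Without single arrays the adjusted p lay between 0.0618 and 0.107. Arms without overlap were found for 20.5% of all genes tested in marrow and for 4 of the 23 genes, of which 3 were higher and 1 lower in hypoxia.

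The uncalled marrow genes with the largest differences were Klrd1, Ccl5, Cd2 and Prf1. Klrd1 was at 7.84, 8.03, 8.23 and 8.26 in the hypoxic marrows, against 7.70, 7.55 and 7.84 in the vehicle marrows, a difference of 0.39 ± 0.11 (limma adjusted p = 0.0730). Prf1 was at 6.07, 6.26, 6.32 and 6.04 in the hypoxic marrows, against 5.91, 5.89 and 5.86 in the vehicle marrows, a difference of 0.28 ± 0.08 (limma adjusted p = 0.0670). The arms of Prf1 did not overlap. Those of Klrd1 nearly touched, with the lowest hypoxic marrow at 7.8435 and the highest vehicle marrow at 7.843. Neither gene passed the threshold. Ccl5 differed by 0.33 ± 0.15 (adjusted p = 0.207) and Cd2 by 0.31 ± 0.14 (adjusted p = 0.196), both with overlap. Of the genes called in spleen, Gzmb differed by 0.19 ± 0.08 in marrow (adjusted p = 0.174).

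Tbx21 was dim in marrow, at 5.00, 4.95, 4.72 and 5.28 in the hypoxic marrows, against 5.60, 5.28 and 5.45 in the vehicle marrows. The lowest vehicle value and the highest hypoxic value were the same, 5.28. In a fit of all 18193 genes with no filter on dim genes it differed by -0.46 ± 0.13 (limma adjusted p = 0.0875), and Ctla4 differed by 0.12 ± 0.06 (limma adjusted p = 0.291).

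**Figure D5:**
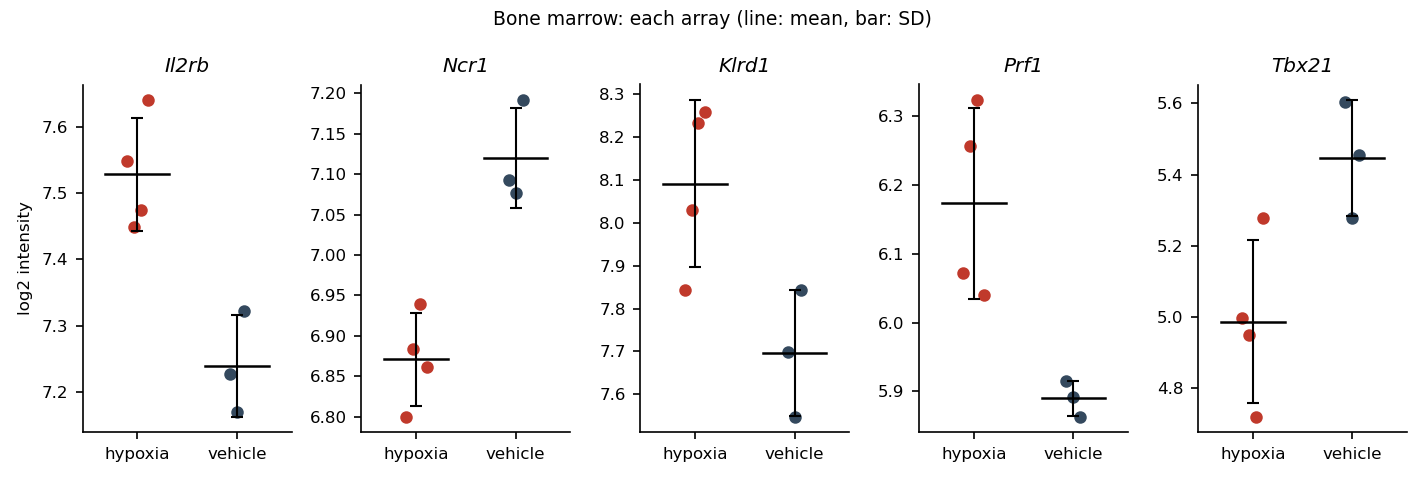
Log2 intensity in each of the 4 hypoxia and 3 vehicle bone marrow arrays for the 2 called genes, Il2rb and Ncr1, for Klrd1 and Prf1, which were not called, and for Tbx21, which was too dim to test, with the mean (line) and SD (bar). The arms do not overlap for Il2rb, Ncr1 and Prf1, nearly touch at 7.84 for Klrd1, and touch at 5.28 for Tbx21.

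By role, the marrow genes of the T cell receptor complex differed by -0.01 for Cd3e to 0.27 for Cd3d, with 0 of 6 called. The 4 adhesion and costimulation genes tested lay between 0.01 and 0.31, and 4 of the 5 effector genes lay above 0, with none called in either role. Of the longer list of T and NK cell genes 36 were tested in marrow, and 5 rose and 1 fell. Over all genes tested there 2.76% were called higher and 4.92% lower. Id2 rose by 1.06 ± 0.07 (adjusted p = 0.000207) and Ptpn22 by 0.84 ± 0.11 (adjusted p = 0.00463). Il7r, the interleukin 7 receptor chain gene of lymphocytes and their precursors, rose by 0.85 ± 0.17 (adjusted p = 0.0192), and Cxcr3, a chemokine receptor gene of effector T cells, by 0.47 ± 0.08 (adjusted p = 0.0142). Ccl3, a chemokine gene, rose by 0.45 ± 0.11 (adjusted p = 0.0472), and Zbtb7b fell by 0.66 (SE 0.10, adjusted p = 0.00681). In marrow 0 of 12 neutrophil, 0 of 12 B cell and 0 of 10 erythroid genes were called, with list medians of -0.04, 0.06 and 0.03, and of 11 glucocorticoid-responsive genes 10 rose and 1 fell. Their part in the marrow results was not tested.

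The response in spleen minus the response in marrow was tested on the 23 genes bright enough in both tissues, in 1 limma fit of all 39 arrays. None of the 23 was called, against 0.272% of 12123 genes tested, 0.0907% higher and 0.181% lower. Gzmb and Cd2 passed an unadjusted p under 0.05. Gzmb had responses of 0.88 in spleen and 0.19 in marrow, a difference of 0.70 ± 0.23 (adjusted p = 0.290). Cd2 had responses of -0.31 in spleen and 0.31 in marrow, a difference of -0.62 ± 0.27 (adjusted p = 0.516). In a limma fit of spleen and marrow arrays only, Cd2 had an SE of 0.32 and no longer passed (unadjusted p = 0.0669). Gzmb still passed there (unadjusted p = 0.0126). Of the 23 differences 16 were below 0 and 7 above, with a median of -0.23 against 0.01 over all genes. A difference between these tissues was therefore not shown for any of the genes, including those called in only 1 of them. With no filter on dim genes, Ctla4 differed by 1.04 ± 0.34 (adjusted p = 0.269) and Tbx21 by -0.60 ± 0.21 (adjusted p = 0.341).

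In liver, none of the 14 genes bright enough to test was called, and none had an unadjusted p under 0.05, where 11.1% of all genes tested were called, 3.88% higher and 7.22% lower. The arms overlapped for each of the 14, while 2.84% of all genes did not overlap. The differences ran from -0.17 ± 0.09 for Cd6 (adjusted p = 0.247) to 0.16 ± 0.11 for Lef1 (adjusted p = 0.413), with 10 below 0 and 4 above. The 4 genes called in spleen gave little to compare there, since Ctla4, Gzmb and Tbx21 were dim, and Prf1 differed by -0.06 ± 0.10 (adjusted p = 0.781). Of the longer list 22 genes were tested in liver, and 1 rose and 2 fell, against the 3.88% higher and 7.22% lower over all genes. Nfil3, a factor needed for NK cell development that is also rhythmically expressed in liver, rose by 1.04 ± 0.19 (adjusted p = 0.00104), while Id2 fell by 0.59 (SE 0.16, adjusted p = 0.0201) and Zbtb7b by 0.25 (SE 0.06, adjusted p = 0.0165). Both Id2 and Nfil3 are also made by hepatocytes.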

How the data were processed

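RNA of 39 samples was measured on 1 Affymetrix array each. The authors deposited 1 table with a linear intensity per probe set and array. Per the submitters' processing notes RMA and limma were used, with no versions, and the labels' protocols give column-purified RNA for liver and spleen and a stabilised-marrow kit for bone marrow. The number of arrays limits the precision.

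Values were taken to log2 with no offset added. Of 45101 probe sets, 34945 carried 1 gene symbol in the platform annotation, 932 several and 9160 none, and 64 were controls. Only those with 1 symbol were used, and 34741 were found in the GRCm38.p6 gene table, without changing a symbol. No genome build is named in the array files. The brightest probe set stood for a gene in each tissue, and genes below the 30th percentile of mean level were left out as dim. Each tissue was fitted with limma 3.58.1 (lmFit, eBayes, two-sided) in R 4.3.3 with data.table (version 1.17.8), and p was adjusted by Benjamini-Hochberg over all 12735 genes. The spleen minus marrow contrast used 6 groups and 12123 genes. On simulated data the spleen fit called 95 of 100 genes changed by 1 and the marrow fit 97 of 100. Of 100 genes changed by 0.5 they called 80 and 69, and each fit also called 10 unchanged genes. The simulated noise was independent between genes and arrays, and 200 of 12735 genes were changed. The real arrays share deviations and had other numbers of calls, so these rates need not hold for them.

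The genes, lists, tests and alternatives were chosen with earlier results of these data known. Named with values were the called genes, the 4 largest uncalled differences in spleen and in marrow and 2 in liver, and up to 6 genes of smallest p of the longer list per tissue; Cd28, Eomes, Gata3 and other single values were added after they were seen. RefSeq windows were found for 23 of the 33 genes. No array duplicated another. The highest share of identical values between arrays of a tissue was 0.0843% in spleen and liver, but 7.77% in marrow. Equal marrow values, such as Tbx21 at 5.28 in both arms, therefore occur more often there. Their origin was not tested, and they limit what overlap or spread in marrow can show. Arrays of equal replicate number in the 2 arms were checked for shared deviations from their arm means. In liver the correlations were 0.166 to 0.535, which met the rule used for pairs, unlike spleen and marrow. Of 8 liver numbers 4 correlated best with their own. These deviations include any shift between replicates 1 to 4 and 5 to 8, whose share in the correlations was not tested. The main liver fit did not use pairs. The labels name no batch. In liver the array medians of replicates 1 to 4, at 5.21 to 5.26, did not overlap those of replicates 5 to 8, at 5.31 to 5.33, in either arm. The set was fitted as a term and each set alone, in liver and in spleen, where the medians of the sets overlapped.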

Additional observations from a re-analysis of the deposited data

Results flagged for a closer look

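Of 26 gene and arm combinations checked for a single array far from the rest of its arm, 5 stood out, all in hypoxic spleens, and chance flags about 1 in 20. Array 4 accounted for 4 of them. Ctla4 was at 6.08 there, with the nearest hypoxic spleen at 7.82. Cd5 was at 6.29, with the nearest at 7.61, Bcl11b at 7.07, with the nearest at 8.21, and Cd247 at 6.96, with the nearest at 8.01. The remaining one was Tbx21 in array 3, at 5.97 with the nearest at 6.54, so the lowest value of the gene that fell came from another array than the rest.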

How the results depend on the processing

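Under the alternatives run, Gzmb and Tbx21 kept their spleen calls in all 30, at 0.62 to 0.98 and at -1.15 to -0.95. Ctla4 lost its call in 2 of 30 and Prf1 in 3 of 29, all named above. Prf1 was not tested with probe sets that may match several transcripts left out. The count of genes called lower in spleen was 2 with the mean of the probe sets (Cd8a joined) and 2 with arrays centred on their median (Gata3 joined), 3 within replicates 5 to 8 (Gata3 and Ncr1 joined) and 1 to 2 without single arrays (Gata3 joined without vehicle 2, hypoxia 2 or hypoxia 5). The count called higher was 1 within replicates 1 to 4 (Gzmb), 5 with the erythroid level as a covariate (Il2rb and Klrd1 joined), 4 with the replicate set as a term (Il2rb joined), 7 with the B cell level (Cd28, Il2rb, Lat and Lef1 joined) and 3 to 4 without single arrays (Il2rb joined without hypoxia 4 or vehicle 8). In bone marrow the count called higher was 0 with the mean of the probe sets, 0 with arrays centred on their median and 0 to 2 without single arrays (Cd3d without vehicle 3, Ccl5 and Klrd1 without hypoxia 1), and the count called lower was 0 without any single array. The causes were not tested.

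With the replicate number as a block, 3 genes were called higher and 1 lower in spleen, as without it. In marrow the block left 0 lower and 1 higher, Cd2 (adjusted p = 0.0494) in place of Il2rb (adjusted p = 0.0793). Same-number correlations ran from -0.478 to 0.313 in spleen, where 0 of 8 numbers correlated best with their own, and from -0.03 to 0.32 in marrow, so the numbers were not taken as pairs there. In liver the block changed no call, and 0 genes were called under every alternative run, as for the spleen minus marrow contrast.

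Over all genes the counts moved by over 1.5 times in several fits. Spleen had 2469 calls, 482 within replicates 1 to 4 and 1595 with the neutrophil level. Marrow had 979 and 408 to 908 without single arrays, and liver 1413, 2385 with the block, 2668 with the number set as a term and 781 within replicates 1 to 4. The contrast between tissues had 33 and, over its alternatives, 12 to 55. In marrow the exact Wilcoxon test was not run, since 4 against 3 arrays cannot give a p below 0.0571.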
